A study of Homo sapiens with 32 samples.

Results

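The transcripts of axon guidance ligands and receptors were followed in Ewing sarcoma cells with and without the cohesin subunit STAG2. Members were chosen by symbol alone, as the Eph receptors, ephrins, semaphorins of classes 3 to 7, plexins, neuropilins, Slits, Robos, netrins, UNC5 receptors and DCC. Of the 28278 gene symbols with read counts, 69 matched, and the same 69 genes were found by Ensembl identifier among the 60199 genes of the STAG2 knockdown. They comprise 5 ephrin-A and 3 ephrin-B ligands, 9 EphA and 5 EphB receptors, 7 class 3 and 13 class 4 to 7 semaphorins, 2 neuropilins, 9 plexins, 3 Slits, 4 Robos, 4 netrins and 5 DCC and UNC5 receptors.

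These families guide growing axons and migrating cells by attraction and repulsion at contact or over a distance. Ephrins are held at the cell surface and signal through Eph receptor tyrosine kinases on the neighbouring cell, and the ephrin-bearing cell can receive a signal in return. Class 3 semaphorins are secreted and act through neuropilins and plexins, most other semaphorins are membrane bound and engage plexins directly, secreted Slits act through Robo receptors, and secreted netrins through DCC and UNC5 receptors. Many members also act outside the nervous system, in blood vessels, neural crest and tumours.

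The A673, SK-N-MC and A4573 lines were established from Ewing sarcoma, a tumour driven by the fusion oncoprotein EWS::FLI1. All A673 KO clones derive from a WT clone that carries a doxycycline-inducible Cas9 at the AAVS1 locus, which the parental line lacks, and the labels give each KO library of a gene another clone number. The tables number the STAG2 KO libraries of experiment 1 as 5 and 24 and the STAG1 KO libraries as 1, 5 and 7, which are not the labelled clone numbers and are used here only as library numbers. A STAG2 KO library is numbered 5 in both experiments, but the labels share no STAG2 KO clone number between the 2 experiments. Experiment 1 held 2 WT clone, 1 parental and 2 STAG2 KO libraries. Experiment 2 held 2 WT clone and 1 parental library, and 3 libraries each of STAG2 KO, EZH2 KO and SUZ12 KO, EZH2 and SUZ12 being subunits of the Polycomb repressive complex PRC2. Experiment 3 held 1 WT clone, 1 parental and 3 STAG1 KO libraries, STAG1 being the alternative to STAG2 within cohesin. In experiment 4, A673 cells, labelled WT when mock transfected, received either a mock transfection (siC) or an siRNA that targets STAG2 (siSTAG2), with 3 libraries each. SK-N-MC WT and STAG2 KO cells had 1 library each, and so had A4573 cells, whose parental cells lack STAG2 although labelled WT, and their knock-in derivative with STAG2 restored (STAG2 KI). No label says that libraries of a clone or treatment came from separate cultures, so p-values measure only the spread between these libraries, which may be technical in part.

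Counts summed to 15734628 to 20663679 in the 22 libraries of A673 clones and to 29322507 to 32261248 in the 4 libraries of isogenic pairs, and 6852340 to 8184632 reads were recovered per knockdown library. Levels are given as counts scaled to library size with edgeR's TMM method (CPM). STAG2 itself was at 243 to 342 CPM in the 6 STAG2-proficient libraries of experiments 1 and 2 and at 43.1 to 185 in the 5 STAG2 KO libraries, and STAG1 overlapped between STAG1 KO libraries (15.5 to 62.7 CPM) and their controls (59.2 to 70.3 CPM). EZH2 was at 28.4 to 55.4 CPM in EZH2 KO libraries beside 163 to 185 CPM in controls, and SUZ12 at 11 to 20.5 CPM in SUZ12 KO libraries beside 56.9 to 63.6 CPM. STAG2 was at 293 CPM in SK-N-MC WT and 184 CPM in STAG2 KO cells, and at 34.1 CPM in A4573 WT and 86.9 CPM in STAG2 KI cells. A transcript of an edited gene can remain where its protein is lost. The STAG2 KO library numbered 5 in experiment 2 stood apart from the other STAG2 KO libraries, with a mean Spearman correlation of 0.942 over genes beside 0.961 to 0.972 for the others. Counts of calls for STAG2 KO against controls and against STAG1 KO are given with and without it. The 2 WT clone libraries of experiment 1 were nearly identical and may share their RNA. Of 16 markers of Ewing sarcoma, 15 were at 1 CPM or more in every A673 group, and their summed level was 6775 to 7386 CPM in STAG2-proficient and 4970 to 6123 CPM in STAG2 KO libraries. The 5 epithelial markers summed to at most 1.05 CPM in these 11 libraries, and the 5 endothelial markers to at most 1.70 CPM. The 4 smooth muscle markers summed to 71.3 to 203 CPM in STAG2-proficient and 49.1 to 73.7 CPM in STAG2 KO libraries, the 5 mature neuron markers to 128 to 424 and 117 to 541 CPM, and the 5 leukocyte markers to 2.59 to 5.51 and 2.36 to 4.10 CPM. Their part in the results was not tested.

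In the STAG2-proficient A673 libraries, 50 of the 69 members reached a mean of 1 CPM and 35 reached 10 CPM. Every family was represented at 1 CPM, with both neuropilins, 12 of 13 transmembrane and anchored semaphorins and, at the low end, 1 of 3 Slits. Levels were compared between genes per kilobase of exon (CPM per kb). The ephrin-B ligand EFNB1 was highest at 55.4 ± 6.75 CPM per kb (SD, n = 6), followed by the semaphorin receptor PLXNB2 at 47.4 ± 7.70, whose range overlapped that of EFNB1. The Eph receptors EPHA2 (35.8 ± 8.70 CPM per kb), EPHB4, a receptor of ephrin-B2 (21.4 ± 1.83 CPM per kb), and EPHA3 (14.5 ± 4.02 CPM per kb) came next, and the netrin receptor DCC was at 13.2 ± 5.27 CPM per kb. EPHA3 and DCC did not differ beyond their spread. EPHA6, PLXNA4, ROBO4, SEMA3E, SEMA5A and SLIT3 stayed under 1 CPM in every counted library, with a highest value of 0.891 CPM. Reads carry no strand, so those of EFNA3 and EFNA4, which share a read-through transcript, of SEMA4G beside MRPL43, PLXNC1 beside CEP83, EPHA1 beside ZYX, EPHB4 beside SLC12A9 and UNC5A beside HK3 may be counted for a neighbouring gene.

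**Figure D1:**
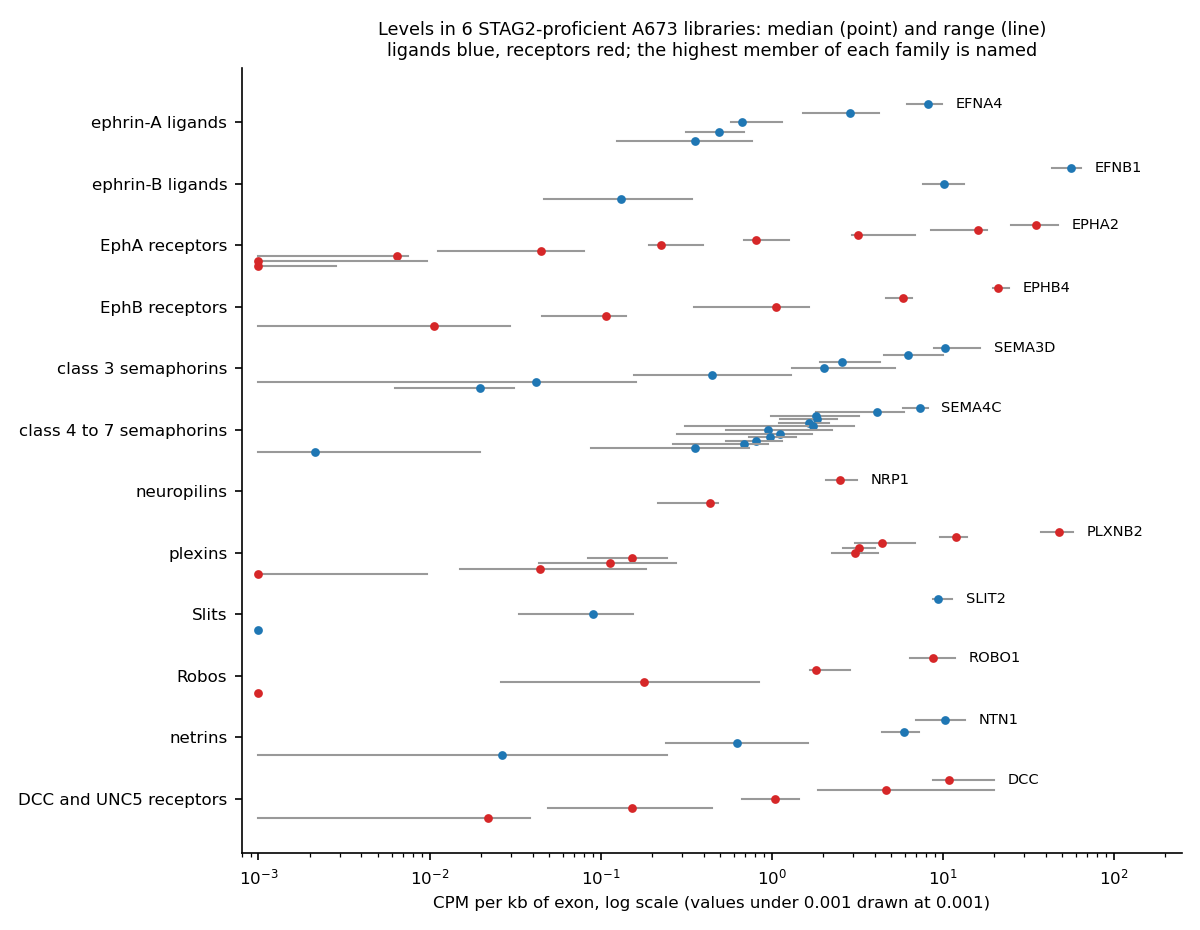
Each point is the median level of a member over the 6 STAG2-proficient A673 libraries, in CPM per kb of exon on a log axis, and each line its lowest to highest library. The highest member of each family is named. EFNB1 and PLXNB2 lie furthest to the right, at means of 55.4 and 47.4 CPM per kb. Members span several orders of magnitude within some families, such as the EphA receptors.

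Promoter sequence is shown for 3 members called in both PRC2 knockouts and 3 called in both the knockout and the knockdown of STAG2, chosen after their values were seen. Each line gives the 200 bases before the annotated start, 5′ to 3′ on the strand of the gene, from RefSeq on GRCh38.p14, with CG dinucleotides in capitals. EFNB2 (chr13:106535663-106535862, minus strand), EPHB1 (chr3:134795060-134795259, plus strand) and EPHB6 (chr7:142862556-142862755, plus strand) rose after loss of either PRC2 subunit. EFNA5 (chr5:107670938-107671137, minus strand) rose, and EFNB1 (chrX:68828821-68829020, plus strand) and SLIT2 (chr4:20251705-20251904, plus strand) fell, after loss of STAG2.
EFNB2: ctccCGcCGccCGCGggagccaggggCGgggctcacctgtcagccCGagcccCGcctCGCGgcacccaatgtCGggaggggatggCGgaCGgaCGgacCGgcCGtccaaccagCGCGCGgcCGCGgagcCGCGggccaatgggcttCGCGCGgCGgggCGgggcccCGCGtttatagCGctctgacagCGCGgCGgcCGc
EPHB1: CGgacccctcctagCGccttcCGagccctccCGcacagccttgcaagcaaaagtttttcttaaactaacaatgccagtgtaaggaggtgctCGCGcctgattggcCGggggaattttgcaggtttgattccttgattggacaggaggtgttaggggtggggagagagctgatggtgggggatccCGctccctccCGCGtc
EPHB6: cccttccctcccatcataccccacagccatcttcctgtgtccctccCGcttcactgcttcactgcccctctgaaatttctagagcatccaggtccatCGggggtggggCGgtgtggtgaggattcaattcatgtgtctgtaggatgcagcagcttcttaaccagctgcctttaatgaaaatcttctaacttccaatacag
EFNA5: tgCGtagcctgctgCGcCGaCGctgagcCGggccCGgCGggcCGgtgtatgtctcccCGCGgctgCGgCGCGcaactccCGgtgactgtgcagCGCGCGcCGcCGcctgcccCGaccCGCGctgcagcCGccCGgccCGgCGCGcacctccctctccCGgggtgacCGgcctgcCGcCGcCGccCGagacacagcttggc
EFNB1: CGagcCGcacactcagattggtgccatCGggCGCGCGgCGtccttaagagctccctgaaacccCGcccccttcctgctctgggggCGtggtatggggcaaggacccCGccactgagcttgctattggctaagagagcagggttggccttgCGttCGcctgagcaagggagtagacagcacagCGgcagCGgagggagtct
SLIT2: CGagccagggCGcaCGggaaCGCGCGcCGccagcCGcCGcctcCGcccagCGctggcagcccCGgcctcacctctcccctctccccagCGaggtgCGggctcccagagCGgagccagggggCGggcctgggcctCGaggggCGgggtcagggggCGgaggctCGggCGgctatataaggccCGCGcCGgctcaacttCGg
The EFNB2 and EFNA5 stretches hold 34 and 33 CG, SLIT2 25, EFNB1 14, EPHB1 10 and EPHB6 3. The RefSeq start used for EPHB6 lies within the gene as GENCODE annotates it, from 142855061, so its stretch may not be the promoter in use in these cells.

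A promoter window of 300 bases, from 250 before to 50 after the start, was found for 59 of the 69 members, in 91 windows. The median window held 21 CG in members and 14 over all 35116 windows. It was 26 in the 15 windows of members called higher in each of the PRC2 knockouts, which share their controls. For STAG2 KO it was 24 in the 9 windows of members called higher and 19 in the 6 windows of members called lower. The letters GGAAGGAA, or TTCCTTCC on the other strand, were searched because EWS::FLI1 is known to bind GGAA repeats. They were present in 4 of 91 member windows (EFNA4, PLXNB1, SLIT3 and UNC5A), or 4.40%, beside 3.67% of all windows. No promoter window was found for NTN1, SEMA6A, EFNB3, NTN3, SEMA6B, UNC5D, NRP1, EPHA10, UNC5B and SEMA3A.

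The comparison of STAG2 KO with STAG2-proficient A673 asks which members depend on STAG2. Netrin-1, ephrin-B1, SEMA3A and SLIT2 were lower in STAG2 KO cells, while ephrin-A5 and the EphA receptors EPHA5 and EPHA7 were higher. Counts of the 11 libraries entered a quasi-likelihood fit of edgeR that also held a term for the experiment, and a member was called where its Benjamini-Hochberg value (adjusted p) over all genes tested was under 0.05. Of the 69 members, 53 passed the filter on low counts. Of these 53, 6 were called higher, where 6.67% of all 13574 genes tested were, and 7 lower, where 5.76% of all genes were. The median log2 fold change was −0.20 over the 53 members and 0.04 over all genes. By family, 2 of 5 tested EphA receptors rose and none fell, 2 of 12 class 4 to 7 semaphorins rose and 1 fell, and the tested EphB receptors, neuropilins and DCC and UNC5 receptors gave no call. EPHB2 was at 15.3 to 20.6 CPM in STAG2-proficient and 1.29 and 0.911 CPM in STAG2 KO libraries of experiment 1. In experiment 2 it was at 4.38 to 11.1 CPM in controls and at 1.87, 14.5 and 0.818 CPM in STAG2 KO libraries. The value of 14.5 CPM was in library 5, which stood apart over all genes. UNC5B was at 46.5 to 137 CPM in STAG2-proficient and 13.6 and 5.70 CPM in STAG2 KO libraries of experiment 1. In experiment 2 UNC5B was at 12.8 to 17.5 CPM in controls and 15.3, 48.5 and 10.7 CPM in STAG2 KO libraries, with 48.5 in library 5. DCC was at 157 to 262 CPM beside 103 and 114 CPM in experiment 1, and at 114 to 129 beside 78.1 to 157 CPM in experiment 2. The count of 13 called members became 24 without STAG2 KO library 5 of experiment 2, 6 without STAG2 KO library 5 of experiment 1 and 8 without WT clone library 2 of experiment 2. Over all genes, 1687 were called in the main fit and 4048, 1292 and 1158 in these fits. Fewer cells with a transcript and less transcript per cell cannot be told apart in these bulk samples.

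Among the ligands, EFNA5 (ephrin-A5, an anchored ligand of EphA receptors; chromosome 5, 107376894 to 107670937 on GRCh38, minus strand) had the smallest adjusted p. It was at 1.81, 2.83 and 3.95 CPM (lowest, median and highest) in STAG2-proficient libraries. In STAG2 KO libraries it was at 22.7 and 19.5 CPM in experiment 1 and at 17.4, 24.8 and 15.8 CPM in experiment 2. The groups did not overlap, and all 5 KO libraries were at 15.8 CPM or more. The log2 fold change was 2.84 (SE 0.24, adjusted p = 6.2e-05 from edgeR), and it was 3.12 within experiment 1 and 2.59 within experiment 2.

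NTN1 (netrin-1; chromosome 17, 9021510 to 9244000, plus strand) went the other way. STAG2-proficient libraries were at 44.8, 65.8 and 86.4 CPM. STAG2 KO libraries were at 19.9 and 4.61 CPM in experiment 1 and at 5.51, 0.892 and 3.43 CPM in experiment 2. Every KO library was under every control, with library 5 of experiment 1 highest. The log2 fold change was −3.39 (SE 0.57, edgeR adjusted p = 0.0035), −2.30 within experiment 1 and −4.40 within experiment 2.

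EFNB1 (ephrin-B1; chromosome X, 68829021 to 68842160, plus strand), the most abundant member per kb, was at 144, 185 and 212 CPM in STAG2-proficient libraries. STAG2 KO libraries were at 77.2 and 48.7 CPM in experiment 1 and at 107, 68.4 and 116 CPM in experiment 2. The groups did not overlap, and the log2 fold change was −1.20 (SE 0.18, edgeR adjusted p = 0.0019). It was −1.49 and −0.99 within experiments 1 and 2.

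Ephrin-B2 (EFNB2), the ligand of EPHB4, rose from a low level. It was at 0.234, 0.662 and 1.70 CPM in STAG2-proficient libraries. STAG2 KO libraries were at 1.88 and 0.740 CPM in experiment 1 and at 5.15, 0.682 and 4.85 CPM in experiment 2. The pooled groups overlapped, library 24 of experiment 1 and library 5 of experiment 2 lying under the highest control. The log2 fold change of 1.77 (SE 0.49, edgeR adjusted p = 0.038) missed the threshold in 9 of 11 fits that left out a library, with an adjusted p of 0.117 without STAG2 KO library 5 of experiment 1.

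The secreted ligands SEMA3A and SLIT2 were lower too. SEMA3A, which acts through NRP1 and plexin-A receptors, was at 17.8, 24 and 39.6 CPM in STAG2-proficient libraries. STAG2 KO libraries were at 11.1 and 1.48 CPM in experiment 1 and at 8.53, 7.30 and 12.9 CPM in experiment 2. The groups did not overlap, but the spread among KO libraries was wide, and the log2 fold change of −1.72 (SE 0.45, edgeR adjusted p = 0.030) missed the threshold in 6 of 11 fits that left out a library. SLIT2 (chromosome 4, 20251905 to 20620561, plus strand) was at 96.4, 104 and 125 CPM in STAG2-proficient libraries. STAG2 KO libraries were at 86.6 and 52.2 CPM in experiment 1 and at 69.8, 70.2 and 79.0 CPM in experiment 2. Each KO library was under each control, a smaller change than those above (log2 fold change −0.58, SE 0.13, edgeR adjusted p = 0.016). Its receptor ROBO2 fell with a log2 fold change of −0.96 (SE 0.29), from 27.9 to 48.0 CPM in STAG2-proficient to 11.2 to 26.8 CPM in STAG2 KO libraries. Its edgeR adjusted p of 0.0498 was at the threshold, which it missed in 8 of 11 fits that left out a library, with a highest adjusted p of 0.153.

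Among the membrane-bound semaphorins, SEMA4D, a ligand of PLXNB1, and SEMA4C, a ligand of PLXNB2, rose modestly, with log2 fold changes of 0.70 (SE 0.16) and 0.45 (SE 0.12). SEMA6A, which binds plexin-A receptors, fell by 0.92 on the log2 scale (SE 0.18). For these 3 genes the pooled groups overlapped. SEMA4C missed the threshold in 7 of 11 fits that left out a library and SEMA4D in 1, without STAG2 KO library 5 of experiment 1 (adjusted p = 0.058). SEMA4D and SEMA6A did not overlap within either experiment. SEMA6A was at 11.9 to 15.1 CPM against 8.60 and 9.12 in experiment 1, and at 8.02 to 9.49 against 3.49 to 4.30 in experiment 2.

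Of the receptors, EPHA7 (chromosome 6, 93240020 to 93419687, minus strand), which binds ephrin-A5, was at 11.4, 13.4 and 20.7 CPM in STAG2-proficient libraries. STAG2 KO libraries were at 58.5 and 46.2 CPM in experiment 1 and at 38.0, 52.9 and 26.1 CPM in experiment 2. All KO libraries were above all controls (log2 fold change 1.55, SE 0.23, edgeR adjusted p = 0.0018). EPHA5, also a receptor of ephrin-A ligands, was at 1.89, 2.21 and 3.92 CPM in STAG2-proficient libraries and at 7.18, 2.90, 6.14, 7.09 and 8.07 CPM in STAG2 KO libraries. A single KO library, number 24 of experiment 1, overlapped with controls (log2 fold change 1.27, SE 0.29, edgeR adjusted p = 0.015), and the call was lost without STAG2 KO library 5 of experiment 1 (adjusted p = 0.066) or WT clone library 1 of experiment 2 (0.056).

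PLXNC1, the receptor of SEMA7A, was at 0.847, 1.53 and 2.45 CPM in STAG2-proficient libraries and at 0.294, 0.171, 0.0520, 0.892 and 0.164 CPM in STAG2 KO libraries. Library 5 of experiment 2 overlapped with the controls, and the log2 fold change of −2.39 (SE 0.62, edgeR adjusted p = 0.028) missed the threshold in 5 of 11 fits that left out a library. The STAG2 KO effect was also compared between experiments 1 and 2. By edgeR, 0 of the 53 members (0% of all genes in either direction) differed at an adjusted p under 0.05, and 19 members and 4150 of all 13574 genes had an unadjusted p under 0.05. The difference was tested with edgeR alone.

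**Figure D2:**
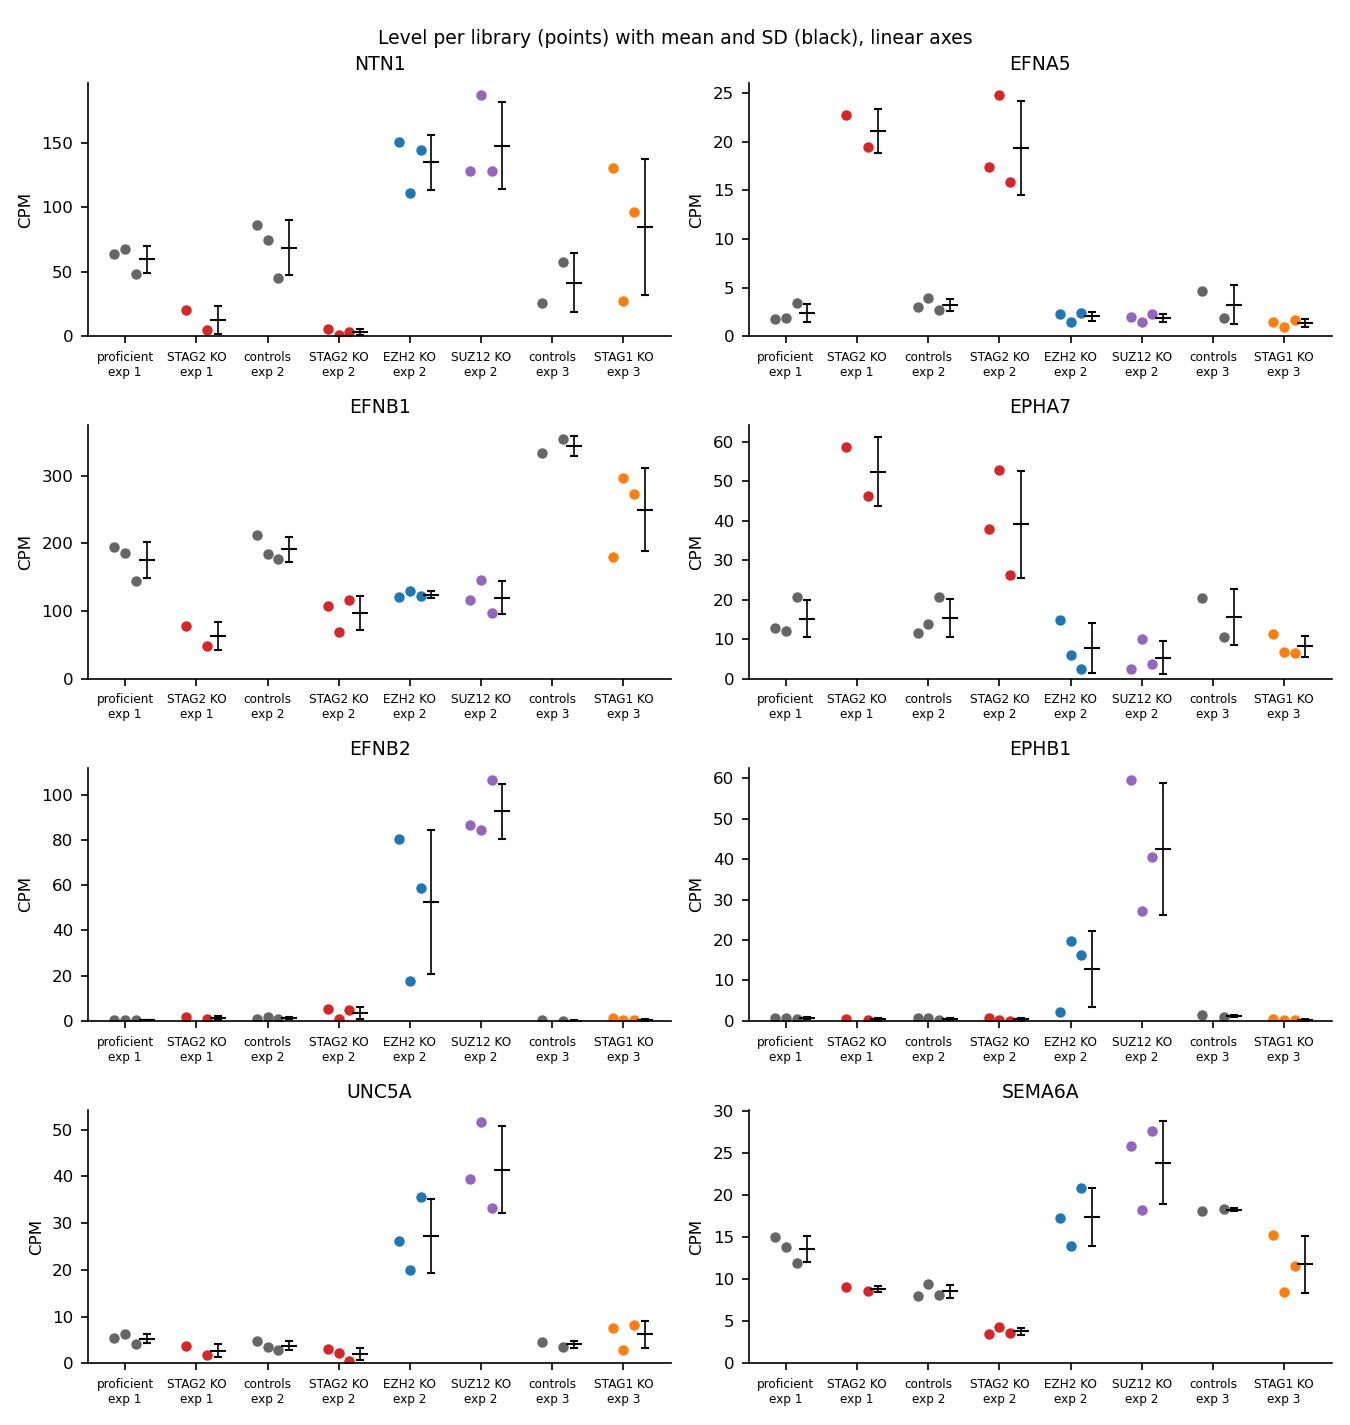
CPM per library on linear axes for 8 members in the A673 clones, with the mean and SD of each group in black. NTN1 lies at 0.892 to 19.9 CPM in STAG2 KO libraries and at 44.8 CPM or more in their controls, EFNA5 at 15.8 CPM or more in STAG2 KO libraries alone, and EFNB2, EPHB1 and UNC5A are highest in EZH2 KO and SUZ12 KO libraries.

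The knockdown of STAG2 asks whether the members also move when STAG2 is lowered by siRNA and not by gene editing. Deposited values are reads divided by 1 factor per library (normalized reads), and log2(value + 1) was tested with limma where the mean was 10 normalized reads or more. The secreted ligands NTN1, SLIT2, SEMA3A, SEMA3C and SEMA3D fell, and ephrin-A5 had the largest increase of the members tested. Of the 69 members, 40 were tested, of which 5 were higher (9.54% of all 12060 genes tested) and 14 lower (11% of all genes). The median log2 fold change was −0.23 over the 40 members and 0.01 over all genes.

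STAG2 itself was at 1068, 992 and 1090 normalized reads in siC and at 144, 180 and 153 in siSTAG2 libraries. EFNA5 was at 42.9, 53.1 and 42.7 normalized reads in siC and at 186, 178 and 161 in siSTAG2 libraries. NTN1 was at 103, 79.7 and 83.3 normalized reads in siC and at 27.7, 28.7 and 25.1 in siSTAG2 libraries (log2 fold change −1.66, SE 0.19, limma adjusted p = 1.9e-07). For all 3 genes the libraries of each condition were fully apart. The largest decrease among the 40 tested members was that of SEMA5B, a transmembrane semaphorin with thrombospondin repeats, at 77.2, 68.9 and 54.2 normalized reads in siC and 14.4, 13.0 and 17.4 in siSTAG2 libraries (log2 fold change −2.08, SE 0.23, limma adjusted p = 1.6e-07).

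Of the class 3 semaphorins, 3 of 4 tested were lower. SEMA3C was at 38.1, 44.3 and 47.9 normalized reads in siC and at 18.9, 16.7 and 14.5 in siSTAG2 libraries (log2 fold change −1.33, SE 0.24). SEMA3A was at 157, 164 and 183 normalized reads in siC and at 91.0, 111 and 100 in siSTAG2 libraries (−0.73, SE 0.12). The third, SEMA3D, was at 216 to 248 normalized reads in siC and at 140 to 171 in siSTAG2 libraries. None of these ranges overlapped between conditions.

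SLIT2 was at 277, 268 and 266 normalized reads in siC and at 136, 144 and 150 in siSTAG2 libraries, a log2 fold change of −0.91 (SE 0.10, limma adjusted p = 1.1e-07). EFNB1 was at 497, 489 and 635 normalized reads in siC and at 287, 312 and 295 in siSTAG2 libraries (−0.85, SE 0.09). SEMA6A was at 181, 216 and 186 normalized reads in siC and at 101, 111 and 114 in siSTAG2 libraries (−0.83, SE 0.12). All 3 were lower in each siSTAG2 library than in each siC library. The netrin receptors DCC, at 255 to 320 normalized reads in siC and 172 to 219 in siSTAG2 libraries, and UNC5B, at 190 to 243 and 132 to 168, were both lower. So were the receptors EPHB2, at 125 to 158 normalized reads in siC and 107 to 115 in siSTAG2 libraries, and EPHB4, at 815 to 930 and 728 to 767. EPHB2 missed the threshold in 5 and EPHB4 in 3 of 6 fits that left out a library. SEMA4D (0.67, SE 0.17), EPHA7 (0.50, SE 0.18), SEMA4C and EFNA4 (0.36 each) made up the other increases, of which EPHA7 and EFNA4 missed the threshold in 5 of 6 fits that left out a library, SEMA4C in 2 and SEMA4D in 1.

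The knockout and the knockdown share no library. Of the 13 members called in STAG2 KO cells and the 19 called after knockdown, 10 were called in both, 76.9% of the former and 52.6% of the latter, and all 10 in the same direction. Over all genes tested in both designs, 47.8% of the knockout calls and 28.2% of the knockdown calls were called in both, and 98.2% of these had the same direction. The shares over all genes leave out genes tested in 1 design. The 76.9% does not, as 3 of the 13 members called in the knockout were not tested in the knockdown. The other 10 were all called in both. EFNA5, EPHA7, SEMA4C and SEMA4D were higher in both, and EFNB1, NTN1, ROBO2, SEMA3A, SEMA6A and SLIT2 lower in both. Among the 40 members tested in both designs, 32 had the same sign (80%), beside 67.6% of the 11155 genes tested in both. The changes were mostly smaller after knockdown, for instance 0.50 for EPHA7 (SE 0.18) and −0.41 for ROBO2 (SE 0.15, called in 1 of 6 fits that left out a library) on the log2 scale. EFNB2, EPHA5 and PLXNC1, called in the knockout, were under the minimum value in the knockdown.

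**Figure D3:**
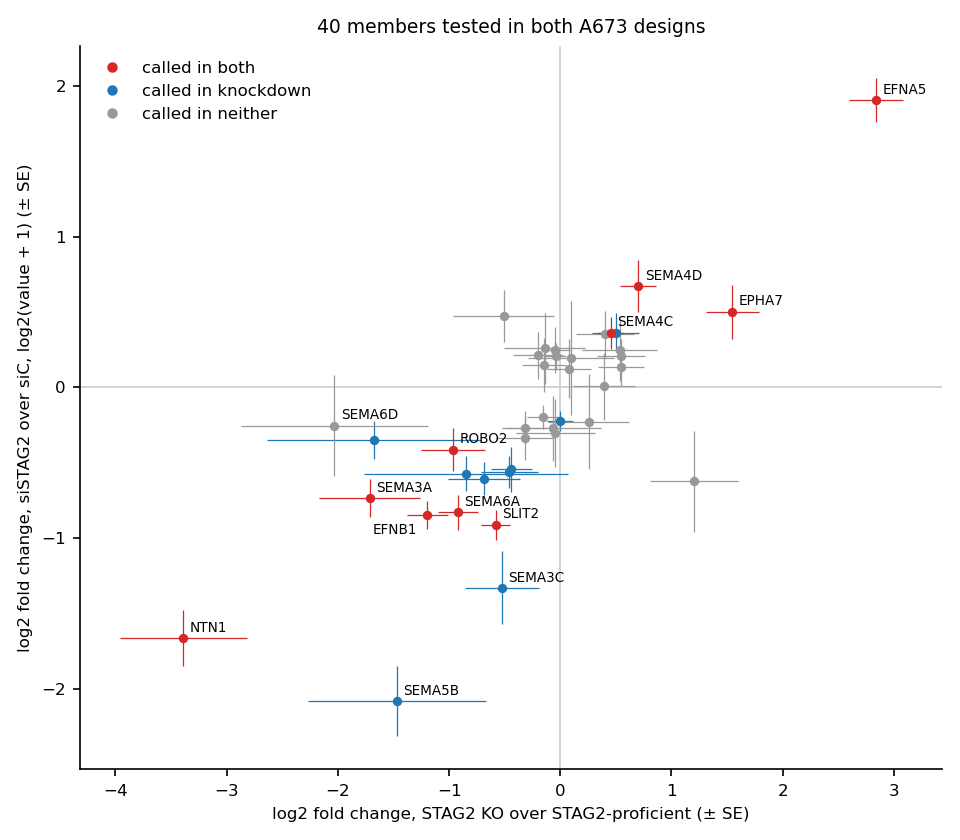
Log2 fold change with SE of the 40 members tested in both A673 designs, STAG2 KO on the x axis and knockdown on the y axis. The 10 members called in both (red) lie in the lower left and upper right quadrants, with NTN1 at −3.39 and −1.66 and EFNA5 at 2.84 and 1.90.

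The isogenic SK-N-MC and A4573 pairs ask whether members also differ with STAG2 in other Ewing sarcoma lines. With 1 library per arm there is no replicate check and no test. Ratios are of the library without STAG2 to that with STAG2, called past 2-fold, with exact binomial 95% intervals that cover counting error only, and CPM was scaled over the 4 libraries. The class 3 semaphorins SEMA3A, SEMA3B and SEMA3D and the netrin receptor DCC were lower without STAG2 in both lines, and ephrin-B2 was higher in both. In SK-N-MC, 60 members had at least 10 counts in the pair, of which 13 were past 2-fold higher (10.4% of all 16413 genes) and 13 lower (11.2%), and in A4573, 62 members, of which 4 were higher (7.76% of all 16124 genes) and 18 lower (14.1%). The median log2 ratio of these members was 0.26 in SK-N-MC and −0.37 in A4573, beside 0.00 over all genes in each.

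DCC was at 16.4 CPM in SK-N-MC WT and 2.55 CPM in STAG2 KO cells, a log2 ratio of −2.64 (−3.03 to −2.33). In A4573 it was at 169 CPM with STAG2 restored and 15.8 CPM without, a log2 ratio of −3.42 (−3.56 to −3.29). The gene was lower without STAG2 in both pairs. In A673 DCC was at 114, 143 and 262 CPM in STAG2-proficient and 78.1 to 157 CPM in STAG2 KO libraries and was not called (log2 fold change −0.46, edgeR adjusted p = 0.28). After knockdown DCC fell by 0.56 on the log2 scale (SE 0.11, limma adjusted p = 0.00036).

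SEMA3D was at 11.3 CPM in SK-N-MC WT and 0.753 CPM in STAG2 KO cells, a log2 ratio of −3.79 (−4.57 to −3.29). In A4573 it was at 44.9 CPM with and 9.89 CPM without STAG2 (−2.18, −2.37 to −2.0). SEMA3A was at 2.19 and 0.164 CPM in SK-N-MC (−3.30, −5.39 to −2.43) and at 38.7 and 15.2 CPM in A4573 (−1.35, −1.51 to −1.19). Both were lower without STAG2 in each line, and EPHA2, SEMA3B, SEMA4G and SEMA6D were past 2-fold lower in both as well. Over all 14965 genes with values in both pairs, 400 were past 2-fold lower in both.

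EFNB2 was at 1.30 CPM in SK-N-MC WT and 4.81 CPM in STAG2 KO cells, a log2 ratio of 1.85 (1.40 to 2.43). In A4573 it was at 2.67 CPM with and 8.90 CPM without STAG2, a log2 ratio of 1.71 (1.38 to 2.11). EFNA4 was the other member past 2-fold higher in both pairs, as were 120 of all genes. The netrin receptor UNC5C was lower in SK-N-MC STAG2 KO cells alone, at 0.491 CPM beside 12.9 in WT cells (−4.53, −5.55 to −3.96), and UNC5B in A4573 without STAG2, at 55.0 CPM beside 235 (−2.09, −2.17 to −2.02). EPHB1 and EPHB2, at 0.303 and 0.425 CPM in SK-N-MC WT, were at 3.54 and 5.30 CPM in STAG2 KO cells, with log2 ratios of 3.31 (2.62 to 4.66) and 3.48 (2.87 to 4.56). In A4573, SEMA3B (−2.70), NTN4 (−2.47) and EFNA2 (−2.29) were lower without STAG2. Of the members called in both A673 designs, EFNA5 had log2 ratios of 0.57 in SK-N-MC and −0.46 in A4573. NTN1 had −1.41 and −0.27, EFNB1 −0.96 and −0.86, EPHA7 1.36 and 0.78, and ROBO2 −0.95 and −1.75. SLIT2 had −0.46 and 0.25, SEMA6A −0.03 and 0.09, SEMA4C 0.50 and −0.23, and SEMA4D 1.53 and 0.22. Signs differed between the lines for EFNA5, SLIT2, SEMA6A and SEMA4C.

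**Figure D4:**
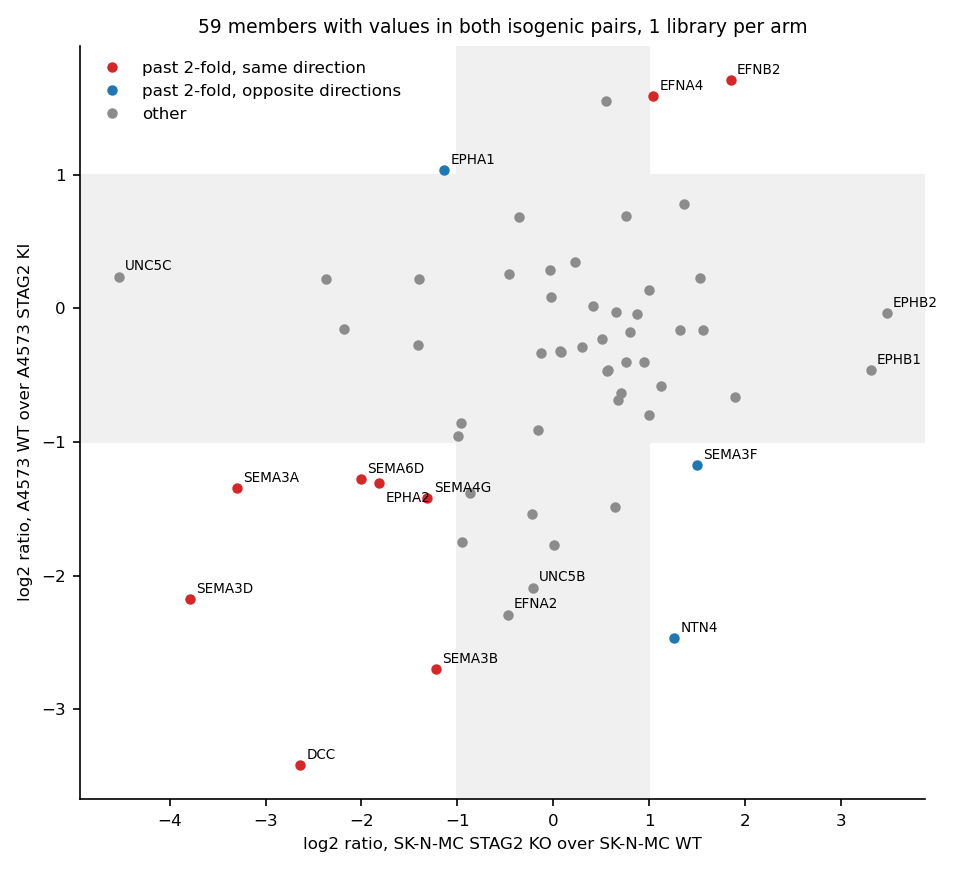
Log2 ratio of the library without STAG2 to the library with STAG2 for the 59 members with values in both pairs, SK-N-MC on the x axis and A4573 on the y axis, with the bands within 2-fold in grey. DCC and SEMA3D lie furthest to the lower left, EFNB2 and EFNA4 to the upper right, and EPHA1, NTN4 and SEMA3F past 2-fold in opposite directions.

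The STAG1 KO clones ask whether the other STAG subunit bears on the same genes. Of 57 members tested with edgeR in experiment 3, 1 was higher (2.77% of all 14373 genes tested) and 3 were lower (2.5%). The 2 controls limit this comparison, since without either of them edgeR called 0 members and 0 genes in all, with 8 members at an unadjusted p under 0.05 without the parental and 20 without the WT clone library. Without STAG1 KO library 1, in which STAG1 was at 62.7 CPM, 8 members were called, and without library 5, 2. In these 2 fits 1310 and 264 genes were called in all, beside 757 in the main fit. Leukocyte markers summed to 3.26 to 4.30 CPM in controls and 7.32 to 11.7 CPM in STAG1 KO libraries, smooth muscle markers to 102 to 142 and 188 to 229 CPM, endothelial markers to 1.56 to 1.92 and 2.05 to 3.63 CPM, and mature neuron markers to 96.0 to 102 and 107 to 161 CPM. Epithelial (0.690 to 0.782 and 0.129 to 0.789 CPM) and Ewing sarcoma markers (7644 to 9082 and 7855 to 8887 CPM) overlapped. The part of these markers in the results was not tested.

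EPHB2, a receptor of ephrin-B ligands, was at 33.2 and 17.8 CPM in the parental and WT clone controls and at 4.53, 5.30 and 8.94 CPM in STAG1 KO libraries (log2 fold change −2.03, SE 0.38, edgeR adjusted p = 0.042). SEMA4D was at 15.7 and 15.4 CPM in controls and at 5.05, 6.59 and 3.47 CPM in STAG1 KO libraries (−1.63, SE 0.28). EFNA3 was at 10.9 and 9.99 CPM in controls and at 4.53, 4.90 and 4.21 CPM in STAG1 KO libraries (−1.20, SE 0.19). SEMA3D was the member that rose, at 57.2 and 64.4 CPM in controls and at 188, 160 and 117 CPM in STAG1 KO libraries (1.34, SE 0.21). These 4 genes were fully apart between KO and control libraries, and each call was lost without either control. EPHB2, EFNA3 and SEMA3D were also lost without STAG1 KO library 5, and EFNA3 and SEMA4D without library 7.

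The STAG2 KO and STAG1 KO effects were set against each other in a single edgeR fit of 16 libraries from experiments 1 to 3. Of 59 members tested, 4 differed with a higher effect of STAG2 KO (2.36% of all 14696 genes tested) and 4 with a lower one (3.75%). The difference in log2 fold change was 4.07 for EFNA5 (SE 0.51, edgeR adjusted p = 0.00045), which rose by 2.84 in STAG2 KO cells and had a log2 fold change of −1.28 in STAG1 KO cells (edgeR adjusted p = 0.17), at 1.49, 0.902 and 1.63 CPM beside 4.64 and 1.84 CPM in controls. NTN1 differed by −4.43 (SE 1.06), with STAG1 KO libraries at 131, 27.3 and 96.3 CPM beside 25.4 and 57.8 CPM in controls. EPHA7 (2.44, SE 0.47), SEMA4D (2.29, SE 0.31) and SEMA4C (0.74, SE 0.19) had the higher, and SEMA3D (−2.06, SE 0.54) and SLIT2 (−1.37, SE 0.35) the lower effect in STAG2 KO cells. PLXNA2 was also called, at a level of 0 to 0.0545 CPM in STAG2 KO libraries, which gives no fold. Of 16 fits that left out a library, SEMA3D and SEMA4C missed the threshold in 10, SLIT2 in 9, NTN1 in 3 and EPHA7 in 1, while EFNA5 and SEMA4D kept it in all. The count of 8 became 15 without STAG2 KO library 5 of experiment 2, 3 and 4 without the parental and the WT clone library of experiment 3, and 5 without STAG1 KO library 1, WT clone library 2 of experiment 2 or either WT clone library of experiment 1.

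The EZH2 KO and SUZ12 KO clones ask which members change when a subunit of PRC2, which places a repressive mark on histone H3, is knocked out. All 12 libraries of experiment 2 were fitted together with edgeR, and both comparisons use the same 3 controls, as does STAG2 KO in that experiment. The ephrin-B ligand EFNB2 and the receptors EPHB1, EPHB3 and EPHB6 rose after loss of either subunit, and so did UNC5A and NRP1. Of 62 members tested, 14 were higher (12% of all 15130 genes tested) and 2 lower (3.69%) in EZH2 KO cells, and 20 were higher (14.7%) and 4 lower (5.87%) in SUZ12 KO cells. The median log2 fold change of these 62 was 0.58 and 0.67, beside 0.04 and 0.01 over all genes, and the medians were the same with members at the floor of 3 counts set at their bound. The count of 16 in EZH2 KO cells was 10 without WT clone library 1 or without the parental library, and the count of 24 in SUZ12 KO cells was 15 and 14 without WT clone library 1 and 2. All genes called went from 2377 to 1169 and 1441 in EZH2 KO, and from 3112 to 1874 and 1907 in SUZ12 KO cells. With only the libraries compared in the fit, which leaves out all STAG2 KO libraries, 25 members (3429 genes) were called in EZH2 KO and 37 (4378 genes) in SUZ12 KO cells. Markers of other cell types moved with these groups: epithelial markers summed to 0.122 to 0.323 CPM in controls, 1.15 to 2.48 CPM in EZH2 KO and 1.24 to 4.10 CPM in SUZ12 KO libraries, endothelial markers to 1.27 to 1.70, 3.23 to 4.06 and 3.54 to 7.01 CPM, and Ewing sarcoma markers to 6775 to 7386, 5713 to 6184 and 5397 to 6169 CPM. Mature neuron markers summed to 354 to 424 CPM in controls, 203 to 277 CPM in EZH2 KO and 176 to 241 CPM in SUZ12 KO libraries, and leukocyte markers to 2.69 to 5.51, 7.94 to 9.16 and 2.91 to 5.26 CPM. Smooth muscle markers overlapped, at 71.3 to 122, 41.6 to 210 and 62.8 to 120 CPM. The part of these markers in the results was not tested.

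EFNB2 (chromosome 13, 106489745 to 106535662, minus strand) was at 1.08, 1.70 and 0.953 CPM in the controls of experiment 2. It was at 80.6, 17.8 and 58.8 CPM in EZH2 KO libraries, a log2 fold change of 5.41 (SE 0.70, edgeR adjusted p = 0.00063). It was at 86.8, 84.5 and 107 CPM in SUZ12 KO libraries, a log2 fold change of 6.24 (SE 0.72, edgeR adjusted p = 0.00022). All 6 EZH2 KO and SUZ12 KO libraries were at 17.8 CPM or more, with EZH2 KO clone 2 lowest.

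EPHB1 (chromosome 3, 134795260 to 135260467, plus strand), a receptor of ephrin-B ligands, was at 0.646, 0.608 and 0.265 CPM in controls. It was at 2.10, 19.9 and 16.4 CPM in EZH2 KO libraries (log2 fold change 4.66, SE 0.84) and at 59.6, 27.1 and 40.5 CPM in SUZ12 KO libraries (6.4, SE 0.88). Each SUZ12 KO library was above each EZH2 KO library, but the direct comparison of the knockouts gave no call. EPHB6, an Eph receptor without kinase activity, had at most 1 count in each control library, so its fold is a lower bound. It was at 0.955, 3.39 and 1.05 CPM in EZH2 KO and 3.30, 1.63 and 1.66 CPM in SUZ12 KO libraries, at least 11.6-fold and 14.2-fold higher than a floor of 3 counts per library. EPHB3 was at 26.5, 21.0 and 25.9 CPM in controls and at 59.2 CPM or more in all 6 knockout libraries, with log2 fold changes of 1.63 and 1.74 (SE 0.24 each).

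Of the EphA receptors, EPHA1 rose from 0.377, 0.0608 and 0.0529 CPM in controls to 1.48, 5.25 and 0.811 CPM in EZH2 KO libraries (log2 fold change 3.89, SE 0.88) and to 1.0, 1.15 and 1.88 CPM in SUZ12 KO libraries, and its call in EZH2 KO cells was lost without WT clone library 2 (adjusted p = 0.062) or the parental library (0.055), and in SUZ12 KO cells in 5 of 6 fits that left out a library. EPHA5 rose in EZH2 KO libraries, from 2.31, 1.89 and 3.92 CPM to 9.22, 19.7 and 6.35 CPM (2.13, SE 0.42). In SUZ12 KO libraries EPHA5 was at 4.78, 5.46 and 5.8 CPM and was not called. EPHA8 and EPHA10 were called in SUZ12 KO cells from a background of at most 1 count per control library, at least 6.73-fold and 9.5-fold higher, and missed the threshold in 4 and 1 of 6 fits that left out a library. The ephrin-A ligand EFNA1 rose from 1.45, 1.46 and 1.38 CPM to 3.58, 7.17 and 5.58 CPM in EZH2 KO (1.94, SE 0.38) and to 5.35, 7.98 and 4.35 CPM in SUZ12 KO libraries (2.06, SE 0.38). EFNA2 rose in SUZ12 KO libraries, from 0.538, 0.304 and 0.529 CPM to 3.63, 4.10 and 1.61 CPM (2.77, SE 0.53).

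UNC5A (chromosome 5, 176810519 to 176880898, plus strand), a netrin receptor, was at 4.84, 3.47 and 2.91 CPM in controls. It was at 26.2, 19.9 and 35.6 CPM in EZH2 KO libraries (log2 fold change 2.87, SE 0.46) and at 39.5, 51.6 and 33.2 CPM in SUZ12 KO libraries (3.49, SE 0.47). UNC5C, of the same receptor family, fell in SUZ12 KO libraries, from 1.56, 1.70 and 0.529 CPM to 0.239, 0.0881 and 0.215 CPM (−2.76, SE 0.60). The ligand NTN1 was at 86.4, 75.0 and 44.8 CPM in controls, 151, 111 and 144 CPM in EZH2 KO and 128, 187 and 128 CPM in SUZ12 KO libraries, and was not called in either (edgeR adjusted p = 0.12 and 0.069).

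NRP1, the co-receptor of class 3 semaphorins and of vascular endothelial growth factor, was at 23.9, 27.1 and 28.1 CPM in controls. It was at 108, 103 and 107 CPM in EZH2 KO libraries (log2 fold change 2.02, SE 0.29, edgeR adjusted p = 0.0010) and at 87.1, 98.3 and 76.0 CPM in SUZ12 KO libraries (1.75, SE 0.28). The knockout libraries were all well apart from controls. The ligands SEMA3F and SEMA3C also rose in both, with log2 fold changes of 1.80 and 1.85 for SEMA3F (SE 0.30 each) and 1.41 and 1.34 for SEMA3C (SE 0.41 each), which missed the threshold in 5 of 6 fits that left out a library in each. SEMA3D went the other way in SUZ12 KO, from 73.3 to 137 CPM in controls to 36.3 to 45.3 CPM. Its call was lost in 5 of 6 fits that left out a library, and it was not called in EZH2 KO. SEMA4A in SUZ12 KO (2.08, SE 0.66) and ROBO3 in both (3.04, SE 0.94 and 3.36, SE 0.95) were called with wide errors: ROBO3 missed the threshold in all 6 fits that left out a library in EZH2 KO and in 5 of 6 in SUZ12 KO, and SEMA4A in 5 of 6. PLXNA2, a plexin-A receptor of SEMA6A, fell from 1.24, 0.852 and 2.54 CPM to 0.143, 0.49 and 0.0954 CPM in EZH2 KO libraries (−2.65, SE 0.68, lost in 4 of 6 fits that left out a library), and in SUZ12 KO cells, with at most 2 counts in each library, it was at least 10.0-fold lower.

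SEMA6A (chromosome 5, 116443555 to 116574823, minus strand) was called in 4 comparisons with 2 directions. Beside its decrease in STAG2 KO cells and after knockdown, it rose in the PRC2 knockouts. From 8.02, 9.49 and 8.15 CPM in controls it rose to 17.3, 14.0 and 20.9 CPM in EZH2 KO libraries (log2 fold change 1.04, SE 0.22, edgeR adjusted p = 0.0089, and 0.052 without WT clone library 1) and to 25.8, 18.2 and 27.6 CPM in SUZ12 KO libraries (1.5, SE 0.22, edgeR adjusted p = 0.00088). In STAG2 KO libraries of the same experiment it was at 3.49, 4.30 and 3.60 CPM, under all 3 controls. EFNB2 was called higher in STAG2 KO and in both PRC2 knockouts, and EFNB1 lower in STAG2 KO, knockdown and SUZ12 KO cells (−0.65, SE 0.20, in the last, where 5 of 6 fits that left out a library lost the call). EFNA5, the member with the largest increase in STAG2 KO cells, was at 2.24, 1.48 and 2.39 CPM in EZH2 KO and 2.01, 1.41 and 2.25 CPM in SUZ12 KO libraries beside 2.96, 3.95 and 2.70 CPM in controls, and was not called.

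**Figure D5:**
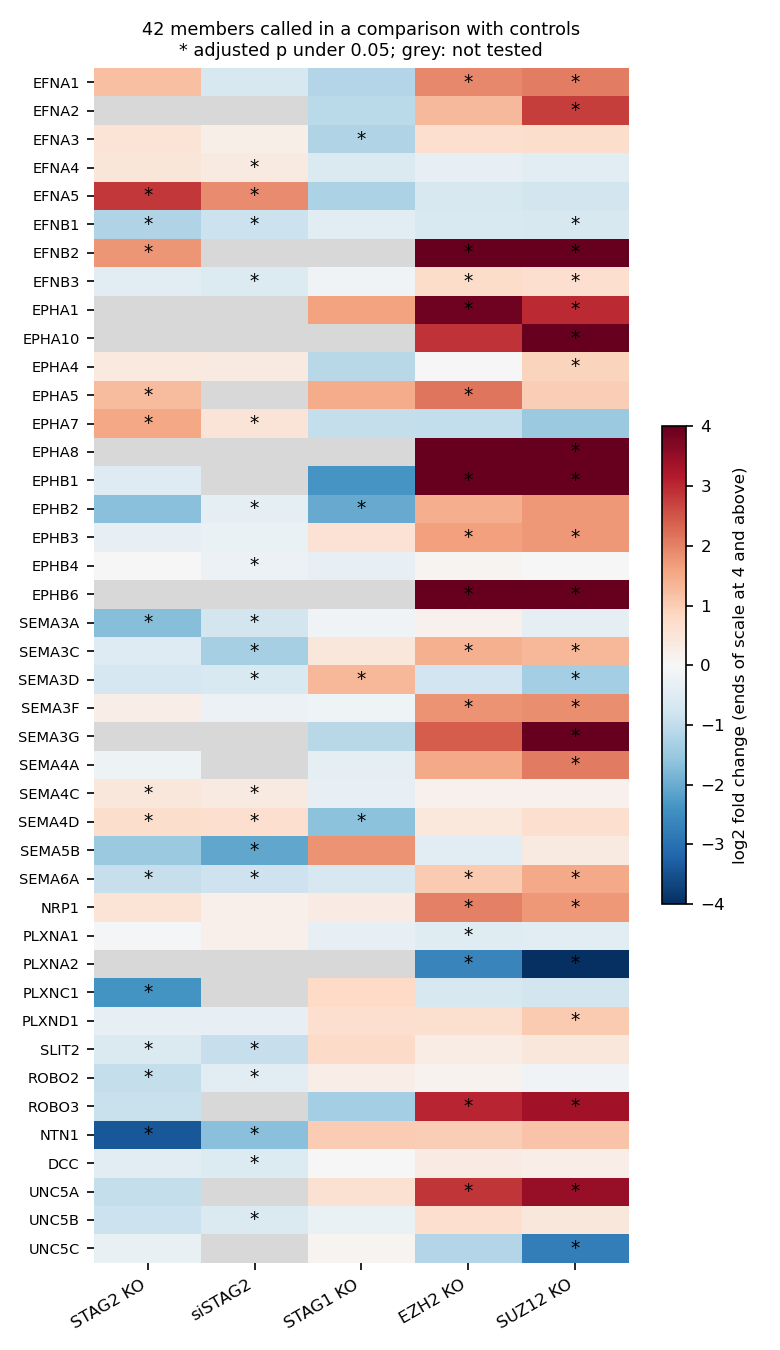
Log2 fold change of the 42 members called in at least 1 comparison of a knockout or knockdown with its controls, in colour from blue (lower) to red (higher), with asterisks at an adjusted p under 0.05 and grey where a member was not tested. EFNA5 is red in STAG2 KO and siSTAG2, EFNB2, EPHB1 and UNC5A in EZH2 KO and SUZ12 KO, and SEMA6A is blue in STAG2 KO and siSTAG2 and red in the PRC2 knockouts.

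EZH2 KO and SUZ12 KO clones were also compared directly, without the shared controls. By edgeR 0 of 62 members were called, as was 1 of 15130 genes (0.00661%, lower in EZH2 KO), and DESeq2 called 0 members and 20 genes. An unadjusted p under 0.05 was found for 6 members and 629 genes. The difference in log2 level, EZH2 KO minus SUZ12 KO, was −1.74 for EPHB1 (SE 0.68) and −0.83 for EFNB2 (SE 0.55), each with an edgeR adjusted p of 0.999, so these knockouts were not shown to act alike or to differ.

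Other genes of the pathway were read from 4 lists with 72 genes: other guidance ligands and receptors, adhesion co-receptors, collapsin response mediators and MICAL oxidases, and kinases, phosphatases and cytoskeletal proteins. In STAG2 KO cells 11 of 61 tested rose and 6 fell, beside 6.67% and 5.76% of all genes. After knockdown 13 of 55 rose and 12 fell, beside 9.54% and 11%. In EZH2 KO 12 of 66 rose and 7 fell, beside 12% and 3.69%, and in SUZ12 KO 11 of 66 rose and 6 fell, beside 14.7% and 5.87%. In STAG1 KO 2 of 63 rose and 8 fell, beside 2.77% and 2.5%. Between STAG2 KO and STAG1 KO, 8 of 63 had a higher and 6 a lower effect, beside 2.36% and 3.75%. The adhesion molecule NRCAM, of the L1 family, was at 99.1 to 150 CPM in STAG2-proficient and 2.45 to 23.1 CPM in STAG2 KO libraries (log2 fold change −3.60, SE 0.47, edgeR adjusted p = 0.00077). FLRT3, a transmembrane protein that binds UNC5 receptors, was at 0 to 0.0584 CPM in STAG2-proficient libraries and at 0.787 to 4.73 CPM in STAG2 KO, 0.383 to 4.92 CPM in EZH2 KO and 3.58 to 9.87 CPM in SUZ12 KO libraries.

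After knockdown, the adhesion molecule ALCAM was at 267 to 291 normalized reads in siC and 616 to 655 in siSTAG2 libraries (log2 fold change 1.19, SE 0.08), and LRRC4, the netrin-G ligand NGL-2, at 92.7 to 129 and 234 to 267 (1.16, SE 0.12). In STAG1 KO cells DSCAM, an adhesion molecule and netrin receptor, was at 0 in all 3 libraries beside 0.670 and 1.23 CPM in controls, and BOC, a co-receptor of Hedgehog ligands, at 0.0564 to 0.105 beside 0.558 and 1.78 CPM. The growth cone protein GAP43 had a lower effect in STAG2 KO than in STAG1 KO cells (difference in log2 fold change −5.31, SE 1.06, edgeR adjusted p = 0.0094). It was at 0.626 to 30.4 CPM in STAG2 KO and 24 to 78.6 CPM in STAG1 KO libraries. These levels are from separately scaled experiments and are given without controls, so they do not show which knockout moved GAP43.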

How the data were processed

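RNA-seq of A673, SK-N-MC and A4573 cells was analysed from the tables the authors deposited. The members, gene lists and tests were chosen with earlier results of these data known. For the clones and isogenic pairs, the deposited values are whole counts of reads per gene symbol, with no normalization. Per the labels and methods, reads of non-directional oligo-dT libraries were aligned by the authors to hg38 with TopHat2 2.0.0 and Bowtie 0.12.7, and the counting program is not given in the sources used here. The knockdown table the authors deposited holds a signal instead, namely counts that had been divided by a factor of their own for each library. The origin of these factors is not given in the sources used here. With this factor undone, 100% of values came out whole within 1e-06 of a read. Of the columns of sample values, 0 were left out.

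Counts were scaled by TMM and tested in R 4.3.3 with edgeR 4.0.16 (filterByExpr by condition, quasi-likelihood fit and test, two-sided), and normalized reads with limma 3.58.1 (trend) on log2(value + 1), which understates changes of low genes. DESeq2 1.42.0 was an alternative. The filter was first run with the design matrix, and was changed to the condition after those results had been seen. Adjusted p-values are Benjamini-Hochberg over all genes tested, and calls were made under 0.05. Standard errors of edgeR folds are the fold divided by the root of F. For isogenic pairs, log2 CPM (prior count 2) was subtracted where the pair held 10 counts or more. CPM was scaled within each table, so levels pooled over experiments 1 and 2 join separately scaled tables. A gene was taken as at the floor where no library of a group exceeded 3 counts, and folds against it are lower bounds per library of 3 counts. Intervals and floors cover counting error only. Members were named as the 8 called members of largest fold per replicated comparison at a mean of 1 CPM or more (10 normalized reads), the 6 of largest ratio per pair, and their ligands, receptors or repeated calls. Of the lists of other pathway genes, 1 is not reported here. Libraries were grouped by their labels, and 5 clone numbers of single KO libraries could be matched to a group only. The procedures were tested on simulated counts with the same dispersion for every gene and independent libraries. This checks the procedures and not the calls reported here. Coordinates are those of GENCODE 44 on GRCh38.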

Additional observations from a re-analysis of the deposited data

Results flagged for a closer look

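In STAG2 KO cells NTN1 was at 19.9 CPM in library 5 of experiment 1, far above the other 4 KO libraries, whose highest was 5.51 CPM. PLXNC1 was at 0.892 CPM in library 5 of experiment 2, the KO library that stood apart over all genes, while the other 4 were at 0.294 CPM or less. These were 2 of 24 groups of members examined for a library far from the rest, and chance marks about 1 in 20 such groups.

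Past 2-fold, 3 members moved in opposite directions in the isogenic pairs, with ratios of the library without STAG2 to that with STAG2. The log2 ratio of EPHA1 was −1.14 in SK-N-MC and 1.03 in A4573. That of NTN4, a netrin, was 1.26 in SK-N-MC and −2.47 in A4573. That of SEMA3F, a secreted semaphorin, was 1.5 in SK-N-MC and −1.17 in A4573. With 1 library per arm, the difference between the lines was not tested for any of them, and 452 of 14965 genes were past 2-fold in opposite directions.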

How the results depend on the processing

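In STAG2 KO cells 13 members were called. Experiment 1 alone called 23, experiment 2 alone 4 and the WT clone as the only control 7, and the count was 6 to 24 when each library was left out. Over all genes, 1687 were called in the main fit, 3663 and 494 in experiments 1 and 2 alone and 1278 with the WT clone as the only control. When each library was left out, 1053 to 4048 genes were called. The counts ranged from 14 to 18 for the knockdown, 10 to 14 for EZH2 KO, 14 to 22 for SUZ12 KO, 0 to 8 for STAG1 KO and 3 to 15 for the difference between STAG2 KO and STAG1 KO when each library was left out, and were 0 for EZH2 KO against SUZ12 KO. All genes called with each library left out were 1750 to 2533 for the knockdown, 1169 to 1760 for EZH2 KO and 1874 to 3238 for SUZ12 KO. The fit that gave 15 for the difference called 1860 genes, beside 898 in the main fit. With the WT clone as the only control EZH2 KO gave 10 members (1441 genes). With only the libraries compared in the fit EZH2 KO gave 25 (3429 genes) and SUZ12 KO 37 (4378 genes), beside 2377 and 3112 genes in the main fits. In STAG1 KO, DESeq2 called 9 and a fit without a filter on low counts 7, and DESeq2 called 13 for the difference. These 3 fits called 1914, 1032 and 1546 genes, beside 757 for STAG1 KO and 898 for the difference in the main fits. Filtering low counts by the design matrix, added after seeing the data, gave 15 in STAG2 KO cells and 8 for the difference, and summing both WT clone libraries of experiment 1, also added, 9. The genes called in all were 1736, 904 and 1154 in that order. On reads recovered from the knockdown edgeR called 20 members and 2503 genes. Leaving 1 sample in an arm assumes that it varies like the other groups. Of 1236 values of single members under alternatives, 237 missed the threshold, 998 kept their direction and side of it, UNC5B in A4573 moved to −2.17 with library size scaling, and 0 reversed. Members under about 1 CPM are limited by depth.

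Deviations of same-numbered libraries from their group means had r of 0.00402 to 0.0372 for siC and siSTAG2. For EZH2 KO and SUZ12 KO, r was 0.38 and 0.322 for numbers 2 and 3 and −0.14 for number 1. As r was not over 0.1 for every number in either set and no label ties the numbers to a batch, the numbers were not taken as pairing. With the replicate number as a block the counts were 21 for the knockdown, 25 for EZH2 KO, 34 for SUZ12 KO and 0 between these knockouts. Over all genes they were 2881, 4114, 5159 and 3.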
